A study of Mus musculus with 6 samples.

Results

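Glycolysis and the pentose phosphate pathway were followed here through 32 gene symbols in bone marrow (BM) cells of mice with T-ALL, an acute leukemia of T-cell progenitors. The members were taken by exact match of the gene name in the deposited expression table, from a list of pathway genes drawn up with earlier results of these data known. They found 33 gene rows of 54532, because the name Aldoa stands for 2 gene identifiers. The study asked what loss of Phf6, a chromatin-associated PHD finger gene, changes in leukemia driven by JAK3 M511I, an activated Janus kinase. All donor cells were C57BL/6 progenitors that carried JAK3 M511I from a retrovirus, and BM was taken on day 100 after transplantation. The 3 control libraries (WT 1 to WT 3) were labelled as Phf6 WT, which the methods describe as Phf6 fl/y without Cre. The 3 others (KO 1 to KO 3) were labelled as Phf6 KO, described as Vav1-Cre;Phf6 fl/y, where Vav1-Cre deletes in blood-forming cells. The labels count the symbol upwards from Phf6 within each group, and all 6 were read as Phf6. Whether cells were sorted and whether a library is 1 animal are not stated, so p-values measure the spread between these libraries.

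Glycolysis turns glucose into pyruvate in the cytosol, in an upper stage that spends ATP and a lower stage that returns it. Pyruvate then becomes lactate, which leaves the cell, or enters mitochondria. The pentose phosphate pathway leaves glycolysis at glucose 6-phosphate. Its oxidative branch makes NADPH, and its non-oxidative branch exchanges sugars with glycolysis and supplies ribose for nucleotides. Many steps have several isoenzymes, encoded by separate genes and used by different cell types, and proliferating T cells and neutrophils are both known for a high use of glucose.

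Between 13015823 and 18235095 reads per library were recovered from the table. Phf6 did not separate the groups: its level was 7.47, 3.67 and 8.02 FPKM (fragments scaled to gene length and library size) in WT 1 to WT 3, and 6.73, 5.50 and 5.11 FPKM in KO 1 to KO 3 (log2 fold change -0.07, limma, adjusted p = 0.893, and 0.69 under the TPM scaling given further on). In the paper the floxed stretch covers only some exons of Phf6, so a level over the whole gene cannot check the deletion. The paper also measured Phf6 mRNA and protein in leukemia cells of both genotypes. The genotypes used here are those of the labels. WT 2 stood apart. Its log2 levels correlated with those of WT 1 and WT 3 at r = 0.779 and 0.746 across genes, against 0.948 or more between the other libraries of a group. Genes under 1000 bases held 17.1% of its reads, against 3.11 to 5.01% elsewhere. Where leaving out WT 2 changes a count or a call, both values are given.

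The cell makeup of the samples also differed. For the counts that follow, 13.1% of all genes tested were higher in KO and 13.3% lower, or 26.8% and 25.3% without WT 2. Under TPM 2279 and 1081 of 13393 genes were higher and lower, and with voom 2011 and 1327. The summed level of 16 neutrophil markers was 34500, 96700 and 7010 FPKM in WT 1 to WT 3 and 96.3 to 296 FPKM in the KO libraries, and all 16 were lower. Of 10 tested markers of monocytes and macrophages 6 were lower (8 without WT 2), with sums of 397 to 4890 FPKM in WT and 22.1 to 29.5 FPKM in KO. The 8 markers of immature T cells were all higher, with sums of 8.61 to 39.4 FPKM in WT and 959 to 1120 FPKM in KO. Ptcra was listed at 0 in all WT libraries. It met the filter on low values (described below) through KO alone, so its direction followed from the filter, which can hold for other markers too. Of 10 cytotoxic markers 9 were lower and 1 was higher, with sums of 1960 to 5350 FPKM in WT and 587 to 663 FPKM in KO. B cell markers summed to 2300 to 23700 FPKM in WT and 29.1 to 123 FPKM in KO, and 3 of 6 tested were lower, or 6 of 6 without WT 2. The 12 general T cell markers had sums that overlapped between the groups, 1170 to 2090 FPKM in WT and 1130 to 1430 FPKM in KO, and 2 were lower (3 higher and 4 lower without WT 2). Of 9 tested erythroid markers none passed the threshold with all libraries (limma; 1 was higher and 4 were lower at an unadjusted p under 0.05, and voom on the reads called 1 higher). Without WT 2 1 was higher and 4 were lower, and under TPM 1 was higher and 2 were lower. Their sum was 68200 FPKM in WT 2 against 141 and 538 FPKM in WT 1 and WT 3. In such mixtures, fewer cells of a type and less RNA per cell cannot be told apart. The part of these markers in the results below was not tested.

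**Figure D1:**
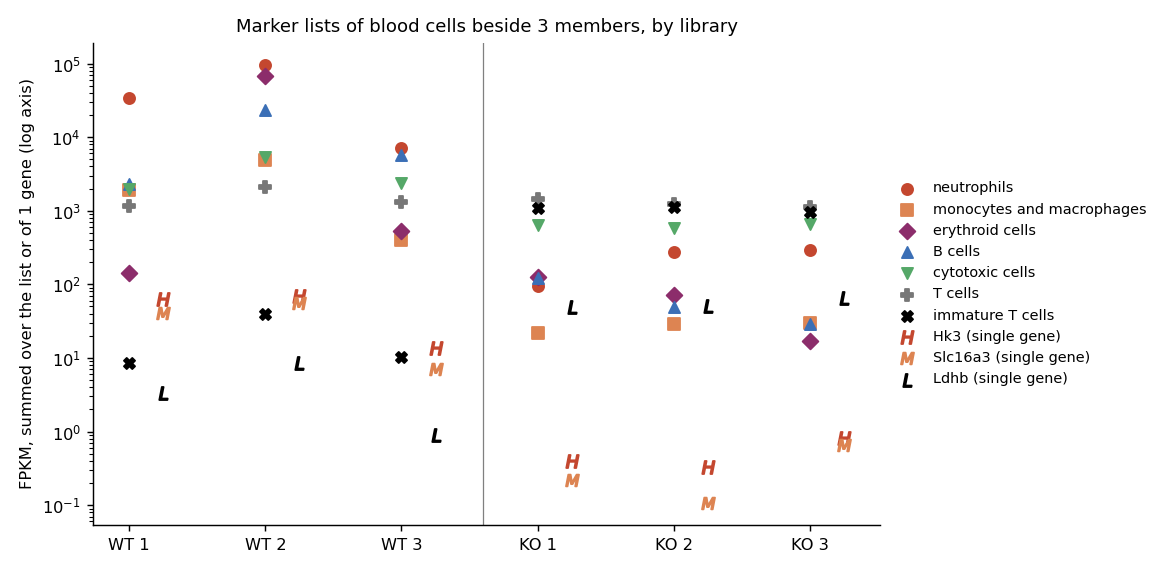
Summed FPKM of 7 marker lists (filled symbols) and FPKM of 3 single members (letters), on a log axis, for each of the 6 libraries. Neutrophil markers, Hk3 and Slc16a3 lie low in the KO libraries, where immature T cell markers and Ldhb lie high.

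Of the 33 rows, 30 passed the filter on low values (at least 1 FPKM in at least 3 libraries). Aldoc, Eno2 and the second Aldoa identifier did not. A gene can meet this filter through 1 group alone, and its direction and lack of overlap then follow from the filter. Hk3 and Slc16a3, under 1 FPKM in all KO libraries, met it through WT alone. Both are counted below among the lower members and those without overlap. Of the 30 tested, 3 were higher in KO (Pfkm, Ldhb and Slc16a1) and 10 were lower (Slc2a1, Slc2a3, Hk3, Pfkl, Pfkp, Aldoa, Gapdh, Slc16a3, G6pdx and Pgd), while 17 did not pass the threshold of 0.05 on the adjusted p. These are 10% and 33.3% of the members, beside 13.1% and 13.3% of all 13393 genes tested (26.4% in either direction). The groups did not overlap for 4 members that were higher in KO and 15 that were lower, or 13.3% and 50% of those tested, beside 26.2% and 22.9% of all genes. The median log2 fold change of the members was -0.80, and that of all genes tested was 0.086.

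Without WT 2, 5 members were higher and 15 lower, beside 26.8% and 25.3% of all genes. All 13 members called with 6 libraries were among these 20. The added ones were Pdk1 and Pgls, higher, and Hk2, Pfkfb3, Pgam1, Eno1 and Rpia, lower. The scaling of the libraries bears on most of these values. When each library was rescaled to a common sum (TPM), the median of all genes moved to 0.86 and that of the members to -0.15. Of the members, 3 were then higher and 3 lower, beside 2279 higher and 1081 lower of the 13393 genes tested. Hk1, Tpi1, Pgam1, Pkm, Pdk3 and Tkt, none of them called, changed sign under TPM. Slc2a3, Hk3, Pfkm, Ldhb and Slc16a3 passed the threshold in each of the 16 alternatives run. For Hk3 and Slc16a3 the direction followed from the filter, as it did for Pfkfb4, Slc2a6, Pygl and Pdk2 among the other genes below.

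**Figure D2:**
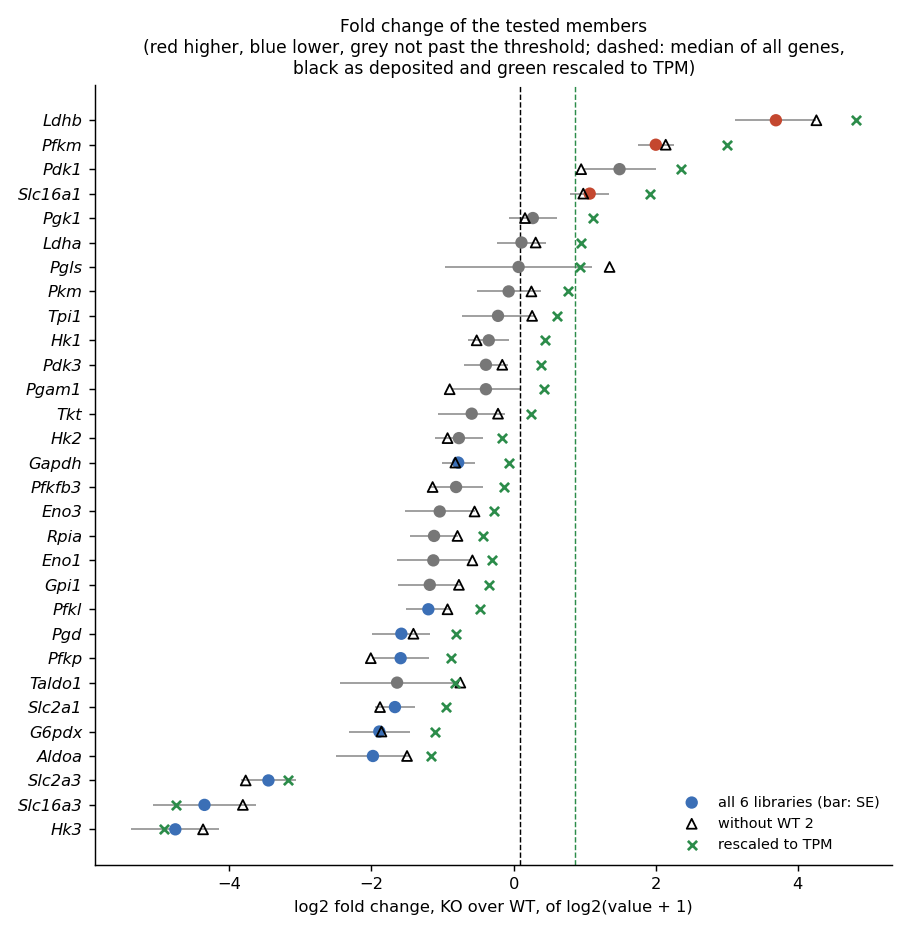
Log2 fold change of the 30 tested members, KO over WT, with all 6 libraries (circles, bar = SE), without WT 2 (triangles) and after rescaling to TPM (crosses). Ldhb (3.69) and Hk3 (-4.76) mark the ends, and the crosses of most members lie to the right by about the distance between the dashed medians, 0.086 and 0.86.

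The share of all reads that fell on the members was looked at next. Together they took 0.460 to 0.721% of the reads in the WT libraries and 0.428 to 0.549% in the KO libraries, so the ranges overlapped. The sum of member levels was 955 to 2700 FPKM in WT and 877 to 1182 FPKM in KO. Glucose uptake genes held 1.19 to 5.04% of that sum in WT and 0.726 to 0.898% in KO. Pyruvate and lactate genes held 11.1 to 18.2% in WT and 28.9 to 31.8% in KO.

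**Figure D3:**
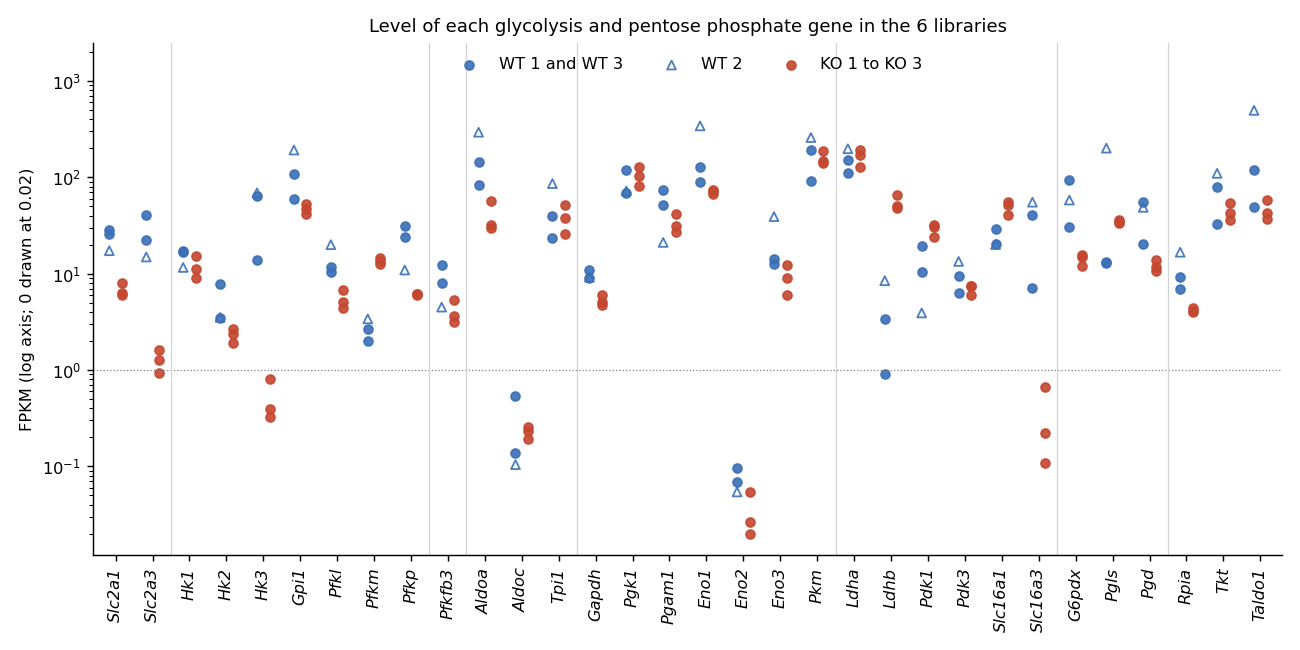
FPKM of each member on a log axis, in pathway order, for WT 1 and WT 3 (blue circles), WT 2 (open triangles) and the KO libraries (red circles), with the filter of 1 FPKM dotted and a value of 0 drawn at 0.02. Slc2a3, Hk3 and Slc16a3 are low in all KO libraries and Ldhb and Pfkm are high, while WT 2 stands far above the others for Pgls and Taldo1.

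Glucose enters blood cells through facilitative transporters, and both transporter genes were lower in KO. Slc2a1 (GLUT1, the widely expressed transporter, chr4:119108711-119137983, plus strand, GRCm38) was measured at 28.7, 17.3 and 25.9 FPKM in WT 1 to WT 3 and at 6.25, 5.94 and 8.06 FPKM in KO 1 to KO 3. All KO libraries lay below all WT libraries (log2 fold change -1.67 ± 0.28 SE, adjusted p = 0.00637), although the call was lost under TPM (adjusted p = 0.279) and with voom on the reads (adjusted p = 0.0569). Slc2a3 (GLUT3, a high-affinity transporter, chr6:122727809-122801640, minus strand) gave 40.2, 14.9 and 22.2 FPKM in WT and 1.62, 1.28 and 0.934 FPKM in KO. This was a 20.1-fold lower mean in KO (log2 fold change -3.45 ± 0.39 SE, adjusted p = 0.00162). The transporters were near parity in WT, where Slc2a1 made up 41.7, 53.8 and 53.8% of their summed FPKM, and Slc2a1 made up 79.4, 82.3 and 89.6% in KO.

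Hexokinases trap glucose in the cell as glucose 6-phosphate, and their makeup differed between the groups. Hk3 (hexokinase 3, known from myeloid cells, chr13:55005985-55021385, minus strand) had 63.4, 69.0 and 13.8 FPKM in WT and 0.394, 0.328 and 0.810 FPKM in KO. The lowest WT library lay far above the highest KO library, and the mean was 95.4-fold lower in KO (log2 fold change -4.76 ± 0.62 SE, adjusted p = 0.00262). The KO libraries held 27, 19 and 48 reads of Hk3 and lay under the filter of 1 FPKM, so the filter fixed the direction. WT 3, the WT library with the least Hk3, also had the smallest sum of neutrophil markers among the WT libraries (7010 FPKM). Hk1, the housekeeping form, was at 17, 11.6 and 16.9 FPKM in WT and 11.2, 9.01 and 15.2 FPKM in KO, so the groups overlapped (log2 fold change -0.35, adjusted p = 0.427, and 0.44 under TPM and 0.03 with voom). Hk2, the inducible form, had 7.80, 3.51 and 3.47 FPKM in WT and 1.89, 2.39 and 2.67 FPKM in KO. It passed the threshold without WT 2 (log2 fold change -0.93, adjusted p = 0.0486) and not with it (-0.77, adjusted p = 0.150). Hk1 thus made up 27.5 ± 19.2% (SD, n = 3) of hexokinase FPKM in WT and 80.4 ± 3.22% in KO, and Hk3 64.7 ± 21.7% in WT and 3.35 ± 0.851% in KO.

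The step from glucose 6-phosphate to fructose 6-phosphate, rests on the single gene Gpi1. Its levels of 59.9 to 192 FPKM in WT lay above the 41.8 to 52.9 FPKM in KO without passing the threshold (log2 fold change -1.18, adjusted p = 0.103, and 0.0547 without WT 2). Of its exon bases 11.5% lie opposite another gene model, Gm26762, and whether strand was used in counting is not given. Phosphofructokinase, the committed step of glycolysis, showed a change of isoenzyme. Pfkm (the muscle form, chr15:98092589-98132451, plus strand) was at 1.98, 3.39 and 2.65 FPKM in WT and 13.5, 12.7 and 14.4 FPKM in KO. It was higher in every KO library (5.07-fold in the means, log2 fold change 2.0 ± 0.25 SE, adjusted p = 0.00219). Pfkl (the liver form, chr10:77986947-78010083, minus strand) moved the other way, from 11.7, 20 and 10.5 FPKM to 4.37, 5.02 and 6.84 FPKM (log2 fold change -1.20, adjusted p = 0.0349). Pfkp (the platelet form, chr13:6579768-6648777, minus strand) went from 24.1, 10.9 and 31.6 FPKM to 6.10, 6.17 and 6.03 FPKM (log2 fold change -1.59, adjusted p = 0.0279). Both groups were thus apart for each of the 3 genes, but the calls of Pfkl and Pfkp were less firm than that of Pfkm. That of Pfkl was lost without WT 1, KO 1, KO 2 or KO 3 (adjusted p = 0.0696, 0.136, 0.135 and 0.0766), and that of Pfkp without each library but WT 2 (adjusted p from 0.0638 to 0.101). That of Pfkl was also lost with voom (adjusted p = 0.0554), no filter (0.0554) and a replicate block (0.0827). That of Pfkp was also lost with voom (adjusted p = 0.137) and no filter (0.0509). Under TPM neither was called (adjusted p = 0.357 and 0.403). As a share of phosphofructokinase FPKM, Pfkm made up 5.24, 9.89 and 5.91% in WT and 56.3, 53.2 and 52.8% in KO. Pfkp made up 55.4 ± 20.7% in WT and 24.5 ± 2.04% in KO. About 10.2% of the exon bases of Pfkm are shared with an overlapping gene model, Gm26513, on the same strand.

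Pfkfb3, which makes the fructose 2,6-bisphosphate that activates phosphofructokinase, overlapped between the groups with 12.3, 4.49 and 7.93 FPKM in WT and 3.15, 3.63 and 5.32 FPKM in KO. It passed the threshold without WT 2 (log2 fold change -1.14, adjusted p = 0.0138) and not with all 6 libraries (-0.81, adjusted p = 0.180). Aldoa (aldolase A, which splits the hexose, chr7:126795234-126800751, minus strand) had 143, 294 and 83.6 FPKM in WT and 32.2, 30 and 56.2 FPKM in KO. The KO libraries lay below the WT libraries (log2 fold change -1.98 ± 0.52 SE, adjusted p = 0.0333). The call was lost without WT 1 or any one KO library (adjusted p from 0.0643 to 0.133) and under TPM (-1.16, adjusted p = 0.0533). It was also lost with no filter (adjusted p = 0.0632) and with a replicate block (adjusted p = 0.0763), and held without WT 2 (-1.50, adjusted p = 0.0139). Aldoc stayed between 0.104 and 0.536 FPKM, and the second Aldoa identifier between 0 and 0.487 FPKM. Tpi1, the triosephosphate isomerase, overlapped at 23.7 to 86.1 FPKM in WT and 25.8 to 51.6 FPKM in KO (log2 fold change -0.22, adjusted p = 0.790, and 0.26 without WT 2 and 0.61 under TPM).

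In the lower stage, Gapdh alone of 6 tested genes was called with all libraries, while 26.4% of all genes were. Without WT 2 3 of the 6 were called, and under TPM 0 (none also at an unadjusted p under 0.05). Gapdh (glyceraldehyde 3-phosphate dehydrogenase, chr6:125161715-125166467, minus strand) was at 9.04, 9.18 and 10.9 FPKM in WT and 4.69, 5.96 and 5.03 FPKM in KO. The groups were apart (log2 fold change -0.78 ± 0.23 SE, adjusted p = 0.0459), but the call was lost without WT 1, WT 3 or any one KO library (adjusted p from 0.0950 to 0.174), and under TPM the difference was -0.06 (adjusted p = 0.930). It was also lost with voom (adjusted p = 0.331), no filter (0.051) and a replicate block (0.145). These Gapdh levels are low beside those of its neighbours in the pathway, for a gene known for very high levels. The 5 named Gapdh copies in the table reached at most 0.101 FPKM. Its level is uncertain, since near-identical copies exist and the setting used for reads that match several places is not given in the sources used here.

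Pgk1, the kinase that returns the first ATP, overlapped with 119, 72.1 and 69.5 FPKM in WT and 80.4, 104 and 128 FPKM in KO (log2 fold change 0.27, adjusted p = 0.604, and -0.09 with array weights). Pgam1, the mutase, had 73.8, 21.1 and 51.6 FPKM in WT and 27.2, 30.9 and 41.5 FPKM in KO. WT 2 was below every KO library, and the other WT libraries were above them. Its log2 fold change was -0.39 (adjusted p = 0.595) with all libraries, -0.90 (adjusted p = 0.0226) without WT 2 and 0.43 under TPM. Eno1, the enolase of most tissues, had 128, 342 and 89.6 FPKM in WT and 67.4, 72.7 and 74.4 FPKM in KO. The groups did not overlap, and the wide WT spread left an adjusted p of 0.162 (log2 fold change -1.13), against 0.0387 without WT 2 (-0.58). A near copy, Eno1b, held up to 3.27% of the reads of the pair, so some reads may be split between them. Eno3, the muscle form, was at 12.6 to 39.1 FPKM in WT and 6.04 to 12.4 FPKM in KO (adjusted p = 0.171), and Eno2, the neuronal form, at 0 to 0.0960 FPKM. Eno1 kept 86.2 to 91.0% of enolase FPKM in WT and 84.4 to 92.5% in KO. Pkm, pyruvate kinase, was among the most abundant members, with 193, 259 and 90.6 FPKM in WT and 140, 149 and 186 FPKM in KO. The groups overlapped (log2 fold change -0.07, adjusted p = 0.926, and 0.25 without WT 2 and 0.77 under TPM). Of its exon bases 15.3% overlap Gm49759 on the same strand.

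Within each library, the summed FPKM of the lower stage was set against that of the upper stage, a ratio that does not depend on the scaling. The lower sum holds Gapdh, whose level is uncertain, and the upper sum holds Hk3, which met the filter through WT alone. The log2 ratio was 0.35, 0.10 and 0.41 in WT and 1.22, 1.35 and 1.09 in KO. The groups did not overlap, with a difference of 0.93 (two-sided exact permutation test, p = 0.1, the smallest that 3 against 3 libraries allow, adjusted p = 0.3 over 3 ratios).

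Lactate dehydrogenase and the lactate carriers each had a pair of genes among the members, and the shares within each pair shifted. Their promoters are given first, since the share of each member within its pair differed between the groups. The windows come from RefSeq on GRCm38.p6 and run from 250 bases before to 50 after a transcription start. Capitals mark ACGTG and GCGTG (cores bound by hypoxia-inducible factors), CACGTG (the E-box core of Myc and others) and TGACNNNGC (the core bound by NRF2), on either strand. CACGTG holds ACGTG on both strands. The Ldha window is chr7:46845554-46845853 (plus strand, 4329 bases inside the deposited gene start), the Ldhb window chr6:142507908-142508207 (minus strand), the Slc16a1 window chr3:104638414-104638713 (plus strand) and the Slc16a3 window chr11:120948817-120949116 (plus strand).
Ldha: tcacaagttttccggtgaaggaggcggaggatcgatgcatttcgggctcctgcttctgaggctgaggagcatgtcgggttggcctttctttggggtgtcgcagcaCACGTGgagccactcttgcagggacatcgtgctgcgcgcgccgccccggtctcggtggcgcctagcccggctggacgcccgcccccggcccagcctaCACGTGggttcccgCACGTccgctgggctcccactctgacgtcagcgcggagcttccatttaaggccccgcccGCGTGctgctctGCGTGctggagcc
Ldhb: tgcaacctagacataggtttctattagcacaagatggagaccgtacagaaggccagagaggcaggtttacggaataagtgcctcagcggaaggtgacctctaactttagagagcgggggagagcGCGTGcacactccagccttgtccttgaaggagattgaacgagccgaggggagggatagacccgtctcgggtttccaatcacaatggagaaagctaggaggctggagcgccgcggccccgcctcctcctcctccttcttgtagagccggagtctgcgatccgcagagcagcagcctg
Slc16a1: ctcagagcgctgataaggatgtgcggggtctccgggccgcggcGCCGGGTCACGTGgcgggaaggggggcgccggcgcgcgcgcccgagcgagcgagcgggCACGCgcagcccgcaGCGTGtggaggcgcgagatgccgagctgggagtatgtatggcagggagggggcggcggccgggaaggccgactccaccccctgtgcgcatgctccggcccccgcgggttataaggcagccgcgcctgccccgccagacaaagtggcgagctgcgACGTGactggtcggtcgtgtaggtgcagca
Slc16a3: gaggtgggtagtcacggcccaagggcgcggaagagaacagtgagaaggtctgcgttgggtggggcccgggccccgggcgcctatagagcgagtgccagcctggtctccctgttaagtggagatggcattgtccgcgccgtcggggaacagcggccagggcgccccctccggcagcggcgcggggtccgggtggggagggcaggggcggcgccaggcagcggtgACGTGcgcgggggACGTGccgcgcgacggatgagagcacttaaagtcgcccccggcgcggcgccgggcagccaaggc
The Ldha window held ACGTG 5 times, GCGTG 2 times and CACGTG 2 times, and the Ldhb window GCGTG 1 time and none of the others. The Slc16a1 window held ACGTG 3 times, GCGTG 2 times and CACGTG and TGACNNNGC 1 time each, and the Slc16a3 window ACGTG 2 times and none of the others. Over the 45 windows of the 31 members matched (all but Slc2a3), 44.4% held ACGTG, against 19.6% of all 32851 windows and 25.8% of the windows of genes tested here. GCGTG was in 60% of member windows, against 32.4% and 50.1%. CACGTG was in 8.89%, against 7.15% and 10.2%, and TGACNNNGC in 11.1%, against 12.4% and 14.6%. These are counts of letters with no test, and windows of a gene can overlap.

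Ldha, the subunit known from glycolytic tissues, had 151, 198 and 111 FPKM in WT and 128, 172 and 191 FPKM in KO. The groups overlapped (log2 fold change 0.11, adjusted p = 0.849, and -0.10 without WT 3 and -0.01 without KO 3). It passed the threshold under quantile normalization (0.91, adjusted p = 0.0415) and under TPM without WT 2 (0.66, adjusted p = 0.0356), and not under TPM with all 6 libraries (0.95, adjusted p = 0.0915). Ldhb (chr6:142490249-142507957, minus strand), the subunit known from heart and other oxidative tissues, had 3.38, 8.45 and 0.904 FPKM in WT and 48.6, 50.2 and 66.0 FPKM in KO. Each KO library was far above each WT library, 12.9-fold in the means (log2 fold change 3.69 ± 0.57 SE, adjusted p = 0.00494). Ldhb made up 2.19, 4.10 and 0.809% of lactate dehydrogenase FPKM in WT and 27.6, 22.6 and 25.6% in KO. Ldha stayed the more abundant subunit in all 6 libraries.

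Slc16a1 (MCT1, a carrier of lactate and pyruvate, chr3:104638668-104658462, plus strand) was at 20.2, 20.1 and 29.3 FPKM in WT and 40.5, 56.1 and 51.8 FPKM in KO. All KO libraries were higher, 2.14-fold in the means (log2 fold change 1.07 ± 0.27 SE, adjusted p = 0.0287). The call was lost without WT 1 (adjusted p = 0.0947) and without KO 1, KO 2 or KO 3 (adjusted p = 0.0630, 0.131 and 0.117). It was also lost with a replicate block (adjusted p = 0.0764). Slc16a3 (MCT4, the carrier known for lactate export, chr11:120948480-120960868, plus strand) had 41.0, 55.2 and 7.11 FPKM in WT and 0.222, 0.107 and 0.666 FPKM in KO. The mean was 104-fold lower in KO (log2 fold change -4.35 ± 0.73 SE, adjusted p = 0.00654), and, as for Hk3, WT 3 was the lowest of the WT libraries. The KO libraries held 22, 9 and 57 reads of Slc16a3 and lay under the filter of 1 FPKM, so the filter fixed the direction. Slc16a1 made up 33.0, 26.7 and 80.5% of the pair in WT and 99.5, 99.8 and 98.7% in KO.

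Pyruvate dehydrogenase kinases hold pyruvate back from mitochondria by switching off pyruvate dehydrogenase. Pdk1 (chr2:71873224-71903858, plus strand) had 10.3, 3.91 and 19.5 FPKM in WT and 30.3, 31.8 and 23.8 FPKM in KO. The KO libraries lay above all WT libraries, and the difference passed the threshold without WT 2 (log2 fold change 0.95, adjusted p = 0.0316) and not with all 6 (1.49, adjusted p = 0.0803). Pdk3 overlapped at 6.35 to 13.4 FPKM in WT and 5.98 to 7.40 FPKM in KO (log2 fold change -0.39, adjusted p = 0.403, and 0.39 under TPM). Pdk1 made up 52, 22.6 and 75.4% of their sum in WT and 80.4, 84.2 and 76.3% in KO, where the highest WT and the lowest KO share nearly touched.

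**Figure D4:**
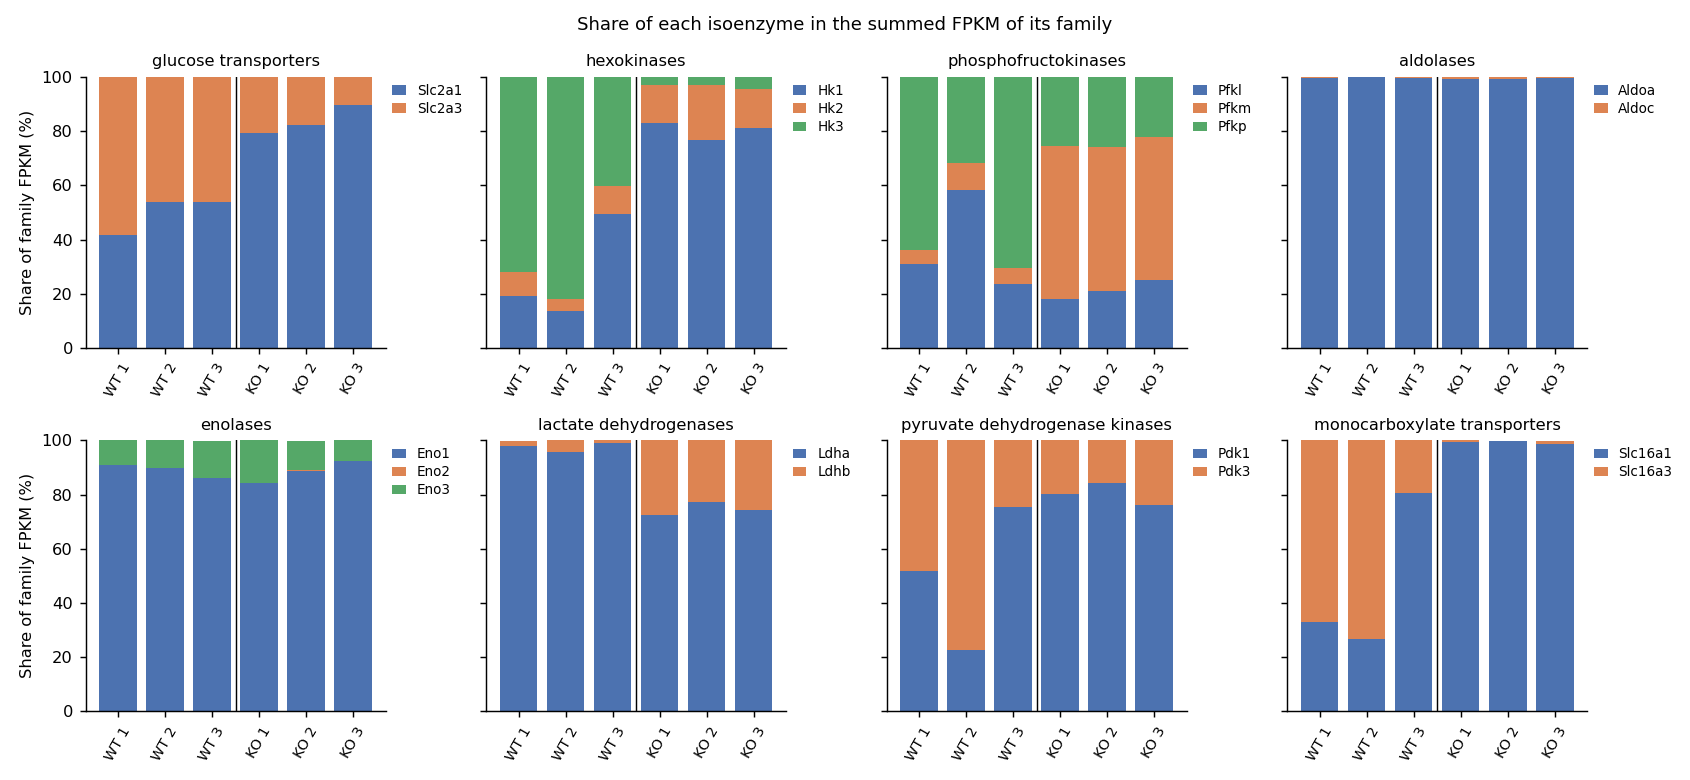
Share of each isoenzyme in the summed FPKM of the members of its family, in percent, for the 8 families with more than 1 member and each of the 6 libraries (WT left and KO right of the line). Pfkm takes 52.8 to 56.3% of the phosphofructokinases and Ldhb 22.6 to 27.6% of the lactate dehydrogenases in KO, against at most 9.89% and 4.10% in WT, while the shares of aldolases and enolases overlap between the groups.

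Over the 8 families, 13 of 19 isoenzyme shares did not overlap between the groups, in 6 families. No count over all genes stands beside this one, and in a pair the shares mirror each other. The shares of hexokinases and lactate carriers rest in part on Hk3 and Slc16a3, which met the filter on low values through WT alone. For each of the 13 the two-sided exact permutation p was 0.1, the smallest possible, and 0.146 after adjustment over the 19 shares, so none could pass 0.05 in a design of this size. A family here holds members alone, so other genes such as Pdk2 do not enter the shares. The shares within a family sum to 100%, so they are not independent.

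In the oxidative branch of the pentose phosphate pathway, both dehydrogenases that make NADPH were lower in KO. G6pdx (glucose 6-phosphate dehydrogenase, the entry step, chrX:74409483-74429194, minus strand) had 94.8, 58.1 and 30.5 FPKM in WT and 12.1, 15.7 and 15 FPKM in KO (log2 fold change -1.89 ± 0.43 SE, adjusted p = 0.0196). Pgd (6-phosphogluconate dehydrogenase, chr4:149149991-149166771, minus strand) had 55.3, 48.8 and 20.1 FPKM in WT and 10.7, 11.6 and 13.9 FPKM in KO (log2 fold change -1.58 ± 0.41 SE, adjusted p = 0.0320). Neither gene overlapped between the groups, and for both WT 3 was nearest to KO. The call of G6pdx was lost without any one KO library (adjusted p from 0.0698 to 0.0838), and that of Pgd without any one KO library or WT 1 (adjusted p from 0.0904 to 0.118). Under TPM the adjusted p was 0.182 for G6pdx and 0.239 for Pgd. The call of Pgd was also lost with voom (adjusted p = 0.0658), no filter (0.0574) and a replicate block (0.0662). Of the exon bases of G6pdx 13.6% lie opposite Ikbkg.

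Pgls, the lactonase between these steps, turned on WT 2. It had 12.8, 201 and 13.1 FPKM in WT and 36.3, 33.2 and 34.6 FPKM in KO, so that WT 2 was 15.6 times the mean of the other WT libraries. Its log2 fold change was 0.07 ± 1.03 SE (adjusted p = 0.971) with all libraries and 1.35 (adjusted p = 0.000461) without WT 2, and it turned to -0.59 without WT 1 and -0.56 without WT 3. Of its exon bases 20.6% overlap Fam129c on the same strand.

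In the non-oxidative branch, with 3 genes tested and 26.4% of all genes called, none was called with all libraries (limma; Rpia alone had an unadjusted p under 0.05, and voom also called 0). Rpia, the ribose 5-phosphate isomerase, had 9.30, 16.7 and 6.85 FPKM in WT and 4.13, 4.03 and 4.4 FPKM in KO, without overlap (log2 fold change -1.12, adjusted p = 0.0547, and -0.79 and 0.0109 without WT 2). Tkt, transketolase, was at 32.8 to 110 FPKM in WT and 36 to 53.5 FPKM in KO (log2 fold change -0.59, adjusted p = 0.417, and 0.24 under TPM). Taldo1, transaldolase, had its peak in WT 2, at 496 FPKM, against 119 and 49.0 FPKM in WT 1 and WT 3 and 36.7 to 58.5 FPKM in KO (log2 fold change -1.64, adjusted p = 0.191, and 0.161 without WT 2). WT 2 also had the highest sum of each of the neutrophil, monocyte, erythroid, B cell, cytotoxic and general T cell lists, and the sum over all its genes was 897400 FPKM, against 244900 to 329900 FPKM in the other libraries. Set against each other, the oxidative and non-oxidative sums differed by 0.01 on the log2 scale between KO and WT (exact permutation p = 1.0), by -0.20 without WT 2, by -0.11 without KO 1, by 0.14 without WT 1 or KO 3, and by -0.31 when reads were used in place of FPKM. The log2 ratios were -0.35, -1.02 and -0.48 in WT and -0.38, -0.57 and -0.87 in KO, so the groups overlapped. In KO, Pgls held 36.3, 33.2 and 34.6 FPKM of oxidative sums of 59.0, 60.5 and 63.5 FPKM. In WT 1 to WT 3 it held 12.8, 201 and 13.1 FPKM of 163, 308 and 63.7 FPKM. The ratio thus mixes Pgls with G6pdx and Pgd, which were lower in KO, and does not describe those 2 genes. All pentose phosphate genes were also set against those of upper and lower glycolysis, without the glucose transporters, Pfkfb3 and the pyruvate and lactate genes. This log2 ratio was -1.37, -0.62 and -1.91 in WT and -1.81, -1.79 and -1.85 in KO, which overlapped. The difference was -0.51 (exact permutation p = 0.4, adjusted p = 0.6), and -0.17 without WT 2, -0.82 without WT 3 and -0.25 with reads.

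Genes of the same and neighbouring pathways outside the 32 were read from lists of general knowledge. Of 35 other genes of glycolysis, gluconeogenesis and the pentose phosphate pathway, 21 were tested, 2 were higher and 4 lower (median log2 fold change -0.15). Of all genes tested, 13.1% were higher and 13.3% lower. Fbp1, the fructose bisphosphatase that runs against phosphofructokinase, had 1.37, 1.95 and 0.190 FPKM in WT and 48.3, 65.1 and 105 FPKM in KO. It lay higher in every KO library (log2 fold change 5.12 ± 0.45 SE, adjusted p = 0.000672). H6pd, the glucose 6-phosphate dehydrogenase of the endoplasmic reticulum, was higher as well, at 9.01 ± 2.73 FPKM (SD, n = 3) in WT and 27.3 ± 4.28 FPKM in KO (log2 fold change 1.53, adjusted p = 0.0114), opposite in direction to G6pdx. Among the lower genes were Pfkfb4, a relative of Pfkfb3 (9.73 ± 5.35 and 0.309 ± 0.139 FPKM, adjusted p = 0.00444), and the lysosomal carrier Slc2a6 (10 ± 9.73 and 0.151 ± 0.0613 FPKM, adjusted p = 0.0320). Adpgk, a hexokinase-like enzyme that uses ADP, went from 37.8 ± 23.3 to 7.14 ± 1.39 FPKM (adjusted p = 0.0134), and G6pc3 was the other lower gene. Fbp1 and Pfkfb4 kept their calls in every alternative fitted. The calls of H6pd and Adpgk were lost without KO 1 or KO 2, that of Slc2a6 without WT 1 or any one KO library, and that of G6pc3 without any one KO library, and under TPM those of Adpgk (adjusted p = 0.170) and G6pc3 (adjusted p = 0.0857) were lost. Tigar, which lowers fructose 2,6-bisphosphate, did not pass with all libraries (log2 fold change -0.78, adjusted p = 0.0687, and 0.00345 without WT 2). Bpgm, which makes the 2,3-bisphosphoglycerate of red cells, had 61.6 FPKM in WT 2 and 5.51 to 9.70 FPKM in the other libraries (log2 fold change -0.80, adjusted p = 0.527, and 0.19 without WT 2 and 0.01 under TPM).

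Of 12 tested glycogen genes 4 were lower and none higher (limma, and none higher at an unadjusted p under 0.05). Lower ones were 3 with voom, 2 under TPM and 5 without WT 2. Of all genes 13.3% were lower and 13.1% higher with all libraries. The 4 lower genes were the liver phosphorylase Pygl (35.0 ± 25.7 and 0.386 ± 0.123 FPKM in WT and KO, log2 fold change -4.46, adjusted p = 0.00172), the phosphatase subunit Ppp1r3d (-2.36, adjusted p = 0.00813), the synthase Gys1 (-1.69, adjusted p = 0.0216) and the phosphorylase Pygb. Pygl and Ppp1r3d kept their calls in every alternative fitted, while under TPM Gys1 (adjusted p = 0.135) and Pygb (adjusted p = 0.787) lost them, as they did without WT 1 or any one KO library (Pygb also without WT 3). For the entry of pyruvate into mitochondria, 1 of 11 tested genes was higher and 1 lower (median 0.51). Pdhx, a structural subunit of pyruvate dehydrogenase, was higher (2.84 ± 0.533 and 6.30 ± 0.366 FPKM, adjusted p = 0.0261), a call lost without any one library but WT 2. Pdk2, a further pyruvate dehydrogenase kinase, had 1.43, 1.64 and 2.57 FPKM in WT, from 70, 61 and 126 reads, and was listed at 0 in all KO libraries (adjusted p = 0.00274), where a count of 0 allows up to 3 reads in a library. Mpc1, a subunit of the mitochondrial pyruvate carrier, was at 1.10 to 6.32 FPKM in WT and 3.58 to 4.79 FPKM in KO (log2 fold change 0.24, adjusted p = 0.760, and -0.30 without WT 2).

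Of 17 tested regulators of glycolysis 1 was higher and none lower (limma), beside 13.1% and 13.3% of all genes. By limma 4 were higher and 2 lower at an unadjusted p under 0.05. Voom called 2 higher and none lower, as did limma under TPM. Epas1 (HIF-2 alpha, a hypoxia-inducible factor) rose from 0.925 ± 0.471 to 5.74 ± 1.81 FPKM (log2 fold change 1.80, adjusted p = 0.00694). Hif1a had 15.4, 7.98 and 10.4 FPKM in WT and 23.2, 18.6 and 19.3 FPKM in KO, without overlap and without passing the threshold (log2 fold change 0.84, adjusted p = 0.0801, and 0.0391 without WT 2). Myc had 30.4, 45.1 and 53.3 FPKM in WT and 64.8, 79.1 and 126 FPKM in KO, also without overlap (log2 fold change 1.03, adjusted p = 0.0838, and 0.0434 without WT 2). Txnip, which holds back glucose uptake, had 75.6 to 168 FPKM in WT and 61.3 to 74.5 FPKM in KO (log2 fold change -0.91, adjusted p = 0.130, and 0.00108 without WT 2). Nfe2l2, which encodes NRF2, overlapped (log2 fold change -0.13, adjusted p = 0.795, and 0.69 under TPM).

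Of 13 tested genes that answer to hypoxia outside glycolysis 4 were higher and 2 lower (median 0.25), beside 13.1% and 13.3% of all genes. These counts were 3 and 0 under TPM and 3 and 1 with voom. Ddit4 was higher, at 17.6 ± 2.77 FPKM in WT and 167 ± 44.0 FPKM in KO (log2 fold change 3.15, adjusted p = 0.000767). Egln3 (2.81, adjusted p = 0.00196) and Ndrg1 (2.09, adjusted p = 0.0132) were also higher, with Kdm3a, and P4ha1 (-1.51, adjusted p = 0.0258) and Ero1l (-1.16, adjusted p = 0.0280) were lower. Ddit4 and Egln3 kept their calls in every alternative fitted. The calls of P4ha1, Ero1l and Kdm3a were lost under TPM (adjusted p = 0.149, 0.560 and 0.0761) and without WT 1 or any one KO library, and that of Ndrg1 without KO 1 or KO 3. Of 9 tested NRF2 response genes, 1 was lower and none higher (limma and voom; by limma none higher also at an unadjusted p under 0.05, and 1 by voom). This was Hmox1, heme oxygenase 1, at 10.2 ± 4.68 FPKM in WT and 2.11 ± 0.880 FPKM in KO (adjusted p = 0.0242). Under TPM 1 gene of the list was higher and none lower, with Hmox1 at an adjusted p of 0.124, and the call of Hmox1 was also lost without WT 1 or any one KO library.

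**Figure D5:**
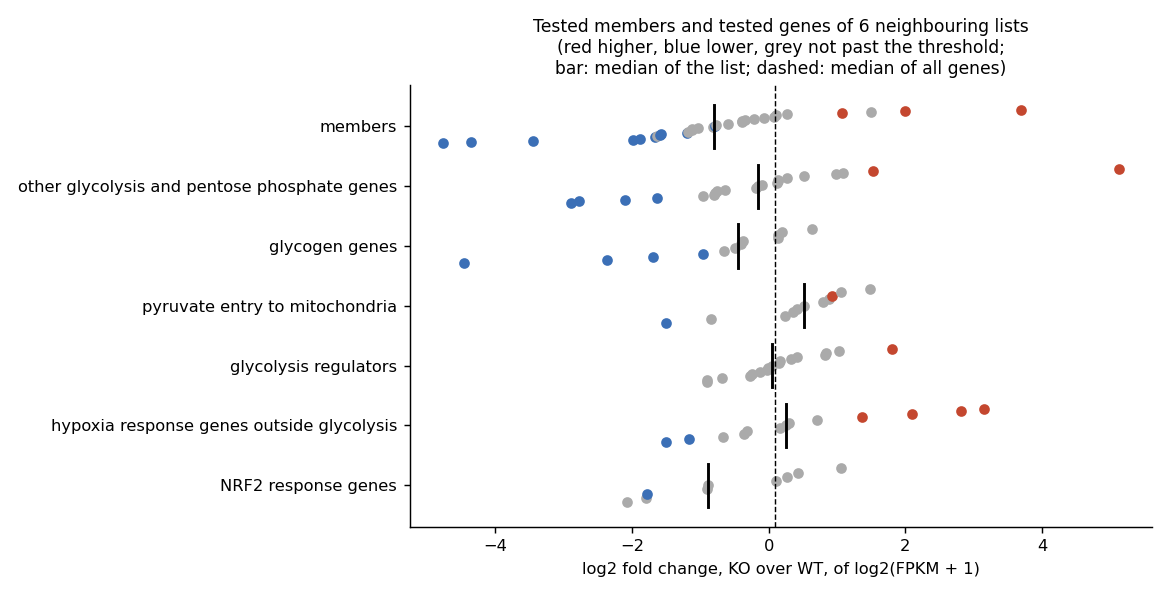
Log2 fold change of each tested gene, KO over WT on the log2(FPKM + 1) scale, for the members and 6 neighbouring lists, with the median of each list as a bar and that of all genes (0.086) dashed. The members (median -0.80) and the NRF2 response genes (-0.89) lie to the left, and Fbp1 (5.12) is the point farthest to the right; the place of Pdk2 (-1.51), which is 0 in KO, depends on the added 1.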

How the data were processed

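RNA was measured in 6 libraries of BM cells, 3 per group. Per the labels and the submitters' processing notes, total RNA was taken up in Trizol, libraries were made with a NEBNext kit, and HISAT2 2.0.5 and featureCounts 1.5.0-p3 were used with GRCm38. The use of strand and of multimapped reads is not given in the sources used here. The authors deposited FPKM values per gene with gene lengths and coordinates, and tested counts with DESeq2. Because the unit is FPKM, the main test here was on the log scale, and recovered reads entered only the alternatives (voom among them) and shares of reads.

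FPKM times length was a whole multiple of 1 step (tolerance 0.001) in 100% of values above 0, which gave the reads per gene. The library size in the deposited FPKM was not their sum, with a ratio of 0.645 in WT 2 and 1.01 to 1.21 elsewhere. Coordinates of 32 of the 33 member rows equal those of GENCODE M21. PCR copies are not independent molecules, so limits on a count cover counting error only.

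Genes with at least 1 FPKM in at least 3 of the 6 libraries (13393) were compared as log2(FPKM + 1), which understates the change of low genes, by limma 3.58.1 in R 4.3.3 (lmFit, eBayes with trend, two-sided, Benjamini-Hochberg over all genes tested, threshold 0.05). Folds of means are of FPKM. Shares and ratios were compared by exact permutation, adjusted within their family. The alternatives were a pseudocount of 0.1, no filter, a mean FPKM of at least 5, TPM, median-of-ratios, quantile normalization, a replicate block, array weights, voom, and each library left out. The members and lists were chosen with earlier results of these data known. All members are named, and of each other list up to 3 genes per direction with the largest change among those called, with 8 regulators and enzymes in any case. G6pc3, Pygb and Kdm3a, which complete a count, were named after their values were seen. Other software was Matplotlib 3.10.9, SciPy 1.17.1 and the package data.table (version 1.17.8), with NumPy 2.4.6 and pandas 2.3.3 under Python 3.11.15.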

Additional observations from a re-analysis of the deposited data

How the results depend on the processing

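Of the 30 members tested 13 were called (3 higher, 10 lower), against 8 with no filter, 6 under TPM, 8 with voom and 23 with array weights, and 6 to 20 with 1 library left out (7 without WT 1, 20 without WT 2 and 6 without any one KO library). The members called higher were 5 under quantile normalization or array weights, and 2 to 5 with 1 library left out. Those called lower were 5 with no filter, 3 under TPM, 5 with voom, 18 with array weights, and 4 to 15 with 1 library left out. The median member change of -0.80 was -0.15 under TPM, and -1.0 to -0.7 with 1 library left out. TPM with WT 2 left out, an alternative chosen after seeing the data, gave 6 higher members and a median of -0.43. Without WT 2, 26.8% of all genes were higher and 25.3% lower. In that fit, the higher and lower genes were 3 and 7 of 21 other glycolysis and pentose phosphate genes, and 0 and 5 of 12 glycogen genes. They were 5 and 1 of 11 genes of pyruvate entry and 4 and 4 of 17 regulators. Of 13 hypoxia genes they were 5 and 2, and of 9 NRF2 response genes 1 and 5. Of all calls, 49.6% were higher as deposited, 67.8% under TPM and 60.2% with voom. All genes called came to 3539, and to 6967 without WT 2, 7761 under TPM without WT 2, 8461 with array weights, and 1934 to 2071 without any one KO library. They came to 3360 under TPM, 3338 with voom and 2620 without WT 1, and to 3613 of 28116 genes with no filter. The replicate numbers of the titles did not pair the libraries (correlations of deviations 0.0954, 0.105 and -0.153), and with them as a replicate block 8 members were called, 6 of them lower. The difference between KO and WT in the log2 ratio of the oxidative to the non-oxidative branch was 0.01 with FPKM and -0.31 with reads. The cause of these changes was not tested.

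Signs changed for members that were not called. Under TPM the values were 0.44 for Hk1, 0.61 for Tpi1, 0.43 for Pgam1, 0.77 for Pkm, 0.39 for Pdk3 and 0.24 for Tkt, and under TPM without WT 2 0.61 for Tpi1, 0.59 for Pkm, 0.16 for Pdk3 and 0.12 for Tkt. With voom they were 0.03 for Hk1, 0.20 for Tpi1, 0.01 for Pgam1 and 0.35 for Pkm. Quantile normalization gave 0.17 for Tpi1 and 0.75 for Pkm, and array weights 0.03 for Tpi1 and -0.09 for Pgk1. With 1 library left out, values ran from -0.65 (without WT 3) to 0.26 (without WT 2) for Tpi1, from -0.50 (without WT 3) to 0.25 (without WT 2) for Pkm, from -0.10 (without WT 3) to 0.31 (without WT 2) for Ldha, and from -0.59 (without WT 1) to 1.35 (without WT 2) for Pgls. The cause was not tested. At 3 libraries a group, an exact test cannot go below p = 0.1.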

Other observations

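Proliferation genes were not part of the comparisons above. The 12 genes of that list had summed levels of 271, 352 and 173 FPKM in WT 1 to WT 3, and 454, 617 and 706 FPKM in KO 1 to KO 3, so the groups did not overlap. All 12 were tested, and 5 were higher and none lower by limma, beside 13.1% and 13.3% of all genes. By voom 10 were higher and none lower, beside 2011 and 1327 of 13393 genes. By limma 9 were higher and none lower at an unadjusted p under 0.05, and the median log2 fold change was 1.46. Without WT 2, 11 were higher, beside 26.8% of all genes, and under TPM 10 were, beside 2279 of 13393. Of the 8 stromal and endothelial markers 1 passed the filter on low values, and their sum was 5.80 to 12.6 FPKM in WT and 18.2 to 19.0 FPKM in KO.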
